A study of Mus musculus with 6 samples.

Results

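Maturation of mouse wound scars was followed by setting the 2 samples taken 9 days after wound closure against the 2 taken at day 4, with the 2 samples of day 6 as the point between. Thus 4 of the 6 samples made the comparison and the other 2 its course. Each was a whole skin biopsy of a scar measured on an Affymetrix exon array, which reads RNA with probes along each exon and gives a level for each transcript cluster. At each day there was 1 sample labelled High and 1 labelled Low for regeneration level. The design text speaks of mice with a high number of regenerated follicles and of mice with none, while the sample labels call the second group Low. The labels give no strain, age, sex, genotype or treatment, and leave unsaid whether an animal gave more than 1 sample. Because a day holds a single High and Low pair, the day cannot be told apart from anything else that a pair shared.

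When a large wound in mouse skin closes, wound-induced hair neogenesis can form new follicles in the scar. A hair follicle is built of concentric layers: an inner root sheath, a hair shaft made of hair keratins cross-linked to keratin-associated proteins, and a sebaceous gland beside it that secretes waxes and other lipids. The scar around it matures as fibroblasts lay down and remodel collagen, vessels are pruned and the epidermis returns to its resting state.

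The values were deposited on a log2 scale, where 1 unit is a 2-fold difference. A gene was taken from rows with exactly 1 symbol, at its row of highest mean. Of 20255 genes, the 15191 that remained after the dimmest 25% were left out (means below 5.60 log2 units) were tested. Levels of different genes come from different probes and are not set against each other. The biopsies carried the markers of skin in all 6 samples: Krt10, the keratin of differentiating epidermis, stood between 12.36 and 12.54 log2 units, and Col1a1, the main fibrillar collagen, between 13.18 and 13.31.

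A pair of libraries stood apart from the others, and both enter the comparison. In the Low sample of day 9, Xist, the RNA that coats the inactive X chromosome, was at 12.77, against 5.75 to 7.30 in the other 5 samples. The Y-linked genes Eif2s3y, Kdm5d and Uty were at 4.36, 4.98 and 3.88 in that sample, against at least 7.10, 7.29 and 7.46 in the others. In the High sample of day 4, the MHC class II gene H2-Ea was at 6.59, against 4.09 to 4.43 elsewhere, and H2-Ob was at 6.16, against 7.68 to 8.07. That same sample exceeded all the others by 2 log2 units or more for 35 genes, a number that was 1 for the Low sample of day 9 and 0 for the other 4. Results are therefore also given without the High day 4 and Low day 9 samples. What then remains is the High difference between days 6 and 9 plus the Low difference between days 4 and 6, a value with no test.

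Most of the genes with a large difference were lower at day 9. In both regeneration groups at once, 105 genes (0.691% of those tested) were lower at day 9 by at least 1 log2 unit and 7 (0.0461%) were higher by as much. Of the 105, 33 were keratin-associated proteins, 15 were keratins and 6 were on the sebaceous gland list, and the other 51 were none of these. Only 3 genes (0.0197%) moved that far in opposite directions. Of all genes, 9691 (63.8%) had 1 sign in both groups, 4382 (28.8%) of them higher and 5309 (34.9%) lower at day 9. Across genes the High and Low differences correlated at r = 0.579, a description only, since genes are not independent replicates. The median difference over all genes was -0.01 log2 units in the High group and -0.02 in the Low group.

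**Figure D1:**
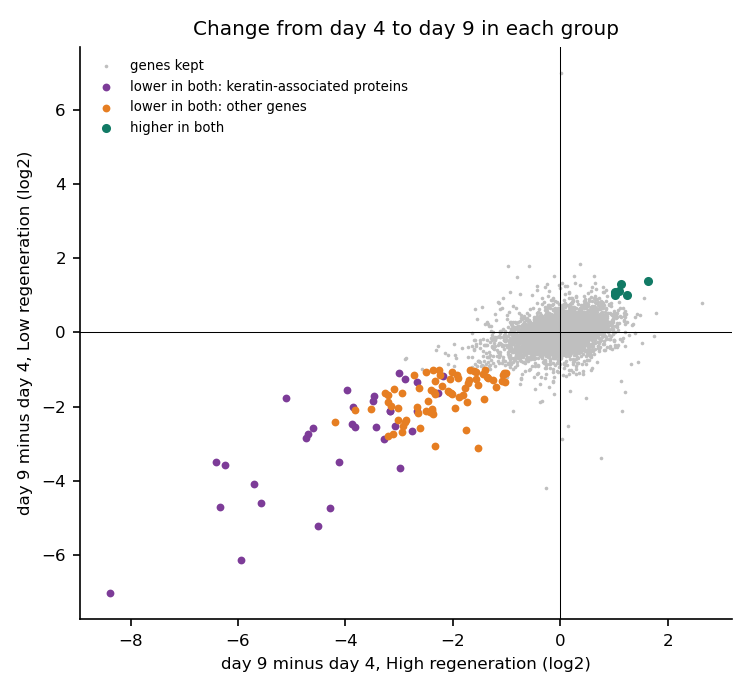
Each point is 1 of the 15191 genes, with its day 9 minus day 4 difference in the High group on the x axis and in the Low group on the y axis, both in log2 units. The 105 genes lower in both groups by at least 1 unit run down the diagonal, the 33 keratin-associated proteins among them reaching the lowest values, while the 7 genes higher in both lie close to the threshold.

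No single gene passed the test over all 6 arrays. By limma (lmFit and eBayes, two-sided, with regeneration level as covariate, 2 residual degrees of freedom), 0 of 15191 genes (0.0%) had a Benjamini-Hochberg adjusted p under 0.05 for day 9 minus day 4, and the smallest was 0.102. Without adjustment 2741 genes (18.0%) had a p under 0.05. At day 9, 1243 of these (8.18% of genes tested) stood higher and 1498 (9.86%) stood lower. Both day 9 samples lay below both day 4 samples for 4131 genes (27.2%) and above them for 3273 (21.5%). Both splits depended on scaling. At an unadjusted p under 0.05, 1591 genes stood higher and 1131 lower after quantile normalization, and 1829 higher and 1067 lower with array medians centred. In an alternative chosen after seeing the data, the genes without overlap were 3229 below and 3969 above after quantile normalization, and 3018 below and 4337 above with array medians centred. Fitted on the 4 arrays of days 9 and 4 alone, with 1 residual degree of freedom, 71 genes passed, 7 higher and 64 lower (lowest adjusted p = 0.000808), and 70 of them were among those at least 1 log2 unit apart in both groups. In both fits a gene's own spread comes from how far the High and Low differences between days lie apart, as no day and group held more than 1 sample. With all 6 arrays the differences to day 6 enter it too. In both, limma also draws each gene's spread toward that of all genes, with 2.82 prior degrees of freedom for 6 arrays and 3.835 for 4. Leaving out either day 6 sample alone gave the same fit as the 4 arrays. With all 6 arrays the highest adjusted p of those 71 genes was 0.291. The values below are therefore given as differences that did not pass.

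Genes of the sebaceous gland were lower at day 9 in both groups. All 12 measured members of the sebaceous gland list were lower in both, against 34.9% of all genes, and all 12 had an unadjusted p under 0.05, against 9.86%. Their median difference was -1.33 log2 units (High -1.53, Low -1.13), beside -0.02 over all genes. This and the other gene lists were chosen with earlier results of these data known, so such counts are a description only. Averaged over the list, the level was 9.61, 8.58 and 8.08 log2 units at days 4, 6 and 9 in the High group and 9.36, 8.84 and 8.19 in the Low group. In a biopsy of mixed tissue, fewer cells of a type and less RNA per cell cannot be told apart.

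Fa2h, the fatty acid hydroxylase of sebum lipids, was at 10.90, 9.43 and 8.54 at days 4, 6 and 9 in the High group and at 10.69, 9.78 and 8.49 in the Low group. Both day 9 samples lay below both day 6 samples, which lay below both day 4 samples. The fitted difference was -2.28 ± 0.15 (SE) log2 units, or 4.85-fold lower at day 9, with adjusted p = 0.102. Scd3, a stearoyl-CoA desaturase largely restricted to sebocytes in mouse, followed the same order, at 11.19, 10.22 and 8.86 in the High group and 11.51, 10.35 and 9.83 in the Low group. Its difference was -2.00 ± 0.21 log2 units. Day 9 minus day 4 was -1.17 ± 0.12 for Far2, a fatty acyl reductase of wax synthesis, -1.49 ± 0.16 for Cidea, a lipid droplet protein, and -0.88 ± 0.08 for Scd1, a broader desaturase. Outside the rule for named genes, and chosen after their values were seen, Elovl3 (a fatty acid elongase), Awat2 (a wax synthase) and Mc5r (the melanocortin receptor of sebocytes) were at -2.22, -1.84 and -1.98 log2 units.

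Enzymes of lipid and xenobiotic metabolism outside that list stood among the genes of lowest p. Acacb, the mitochondrial acetyl-CoA carboxylase, was at 8.77, 7.74 and 7.42 at days 4, 6 and 9 in the High group and at 8.73, 7.94 and 7.51 in the Low group, a difference of -1.29 ± 0.09 (adjusted p = 0.102). Dgat1, the last enzyme of triglyceride synthesis, was at 9.94, 9.16 and 8.90 in the High group and at 10.03, 9.40 and 8.94 in the Low group. For both genes the 3 days did not overlap. Ces1d, a carboxylesterase, had 4.66 and 5.01 log2 units in the High and Low samples of day 9, against 6.44 and 6.49 at day 4. The difference was -1.28 ± 0.09 for Aldh3a1, an aldehyde dehydrogenase, and -1.81 ± 0.14 and -1.60 ± 0.15 for the cytochrome P450 genes Cyp2j8 and Cyp2g1. With the rows of a gene averaged, Cyp2j8 was at -1.07. V1rh19, named on the array as a vomeronasal receptor, had -1.41 ± 0.13. With the pair of libraries that stood apart left out, these lipid genes were still lower at day 9, several by less. Fa2h was then at -1.79, Scd3 at -2.51 and Acacb at -1.12 log2 units. Elovl3, Awat2 and Mc5r were at -1.11, -1.20 and -0.94. The median of the sebaceous list was -0.99, against -1.33 with all arrays.

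**Figure D2:**
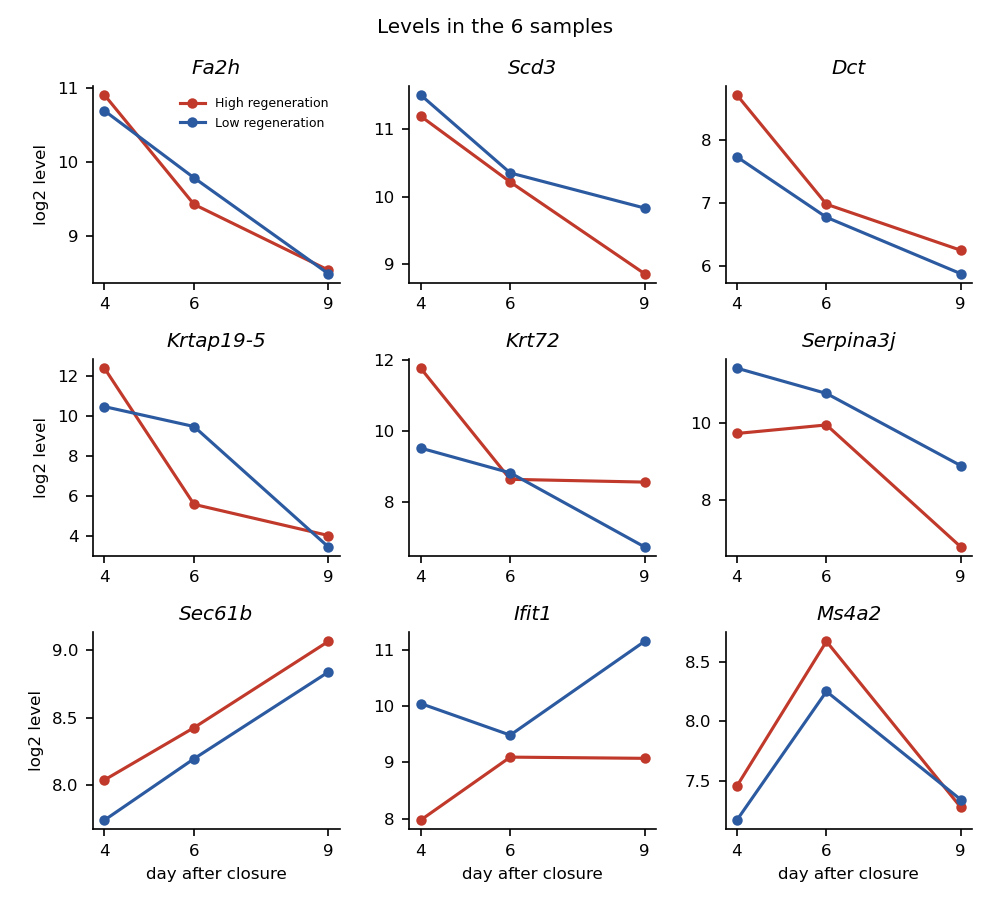
Log2 level of 9 genes in the 6 samples by day after wound closure, with a line for the High and a line for the Low group and 1 sample at each point. Fa2h, Scd3 and Dct step down from day 4 to day 9 in both groups, and Ms4a2 is highest at day 6. At day 6 Krtap19-5 and Krt72 are closer to their day 9 level in High and to their day 4 level in Low.

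The genes of the hair itself gave the largest differences. Of the 105 lower genes, 33 were keratin-associated proteins (of 36 tested) and 15 were keratins (of 41 tested), with median differences of -3.17 and -2.19 log2 units. The keratins were counted by name and include Krt77, which was listed with differentiated epidermis and not with hair. Keratin-associated proteins are a multigene family of close copies, so members cannot be fully told apart on an array. Krtap19-5, chosen as the gene with the largest fitted difference, was at 12.39, 5.57 and 4.00 log2 units at days 4, 6 and 9 in the High group and at 10.46, 9.46 and 3.43 in the Low group. Its fitted difference was -7.70 ± 1.39 (SE) log2 units (adjusted p = 0.175). Both day 9 values lay below the lower quartile of their arrays (4.74 on each) and below the 5.60 under which dim genes were left out, so the size of the difference is set against dim levels. Both day 9 samples were below 5.60 for 15 of the 105 lower genes. The groups of days 9 and 4 did not overlap. At day 6 the High sample had 81.4% of its day 4 to day 9 difference and the Low sample 14.2%.

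Promoters of the lower genes often held a TATA box, the element that sets the start site in many tissue-specific genes. The letters TATAAA were searched on both strands in RefSeq promoters (build GRCm38.p6, 250 bases before to 50 after the start), which were matched for 11690 of the genes tested. They occurred in 44 of 81 promoters of the lower genes (54.3%), in 24 of 29 of the keratin-associated proteins (82.8%) and in 20 of 52 of the others (38.5%), against 8.39% of all 11690. A match is a description of these letters and not a site. The 150 bases before the start are shown for the gene of largest difference, Krtap19-5 (chr16:88896450-88896599, minus strand), and for Krt26, a keratin of the inner root sheath (chr11:99337966-99338115, minus strand), with the match in capitals.
Krtap19-5: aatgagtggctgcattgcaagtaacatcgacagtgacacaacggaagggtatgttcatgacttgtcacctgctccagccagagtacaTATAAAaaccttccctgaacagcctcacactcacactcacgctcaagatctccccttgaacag
Krt26: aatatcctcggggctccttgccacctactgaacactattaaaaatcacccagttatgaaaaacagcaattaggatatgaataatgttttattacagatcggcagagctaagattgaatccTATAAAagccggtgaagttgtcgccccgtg

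The match began 63 bases before the annotated start in Krtap19-5 and 30 bases before it in Krt26. Krt26 was at 10.19, 6.99 and 7.25 log2 units at days 4, 6 and 9 in the High group and at 7.82, 7.10 and 5.13 in the Low group. Among the inner root sheath genes, 11 of 12 were lower in both groups, against 34.9% of all genes. Their median was -1.93 log2 units (High -2.01, Low -1.83). Krt71, a main keratin of that sheath, was at 11.22 in High and 8.38 in Low at day 9, against 12.97 in High and 11.01 in Low at day 4. Its day 9 High sample was thus above its day 4 Low sample, and the days overlapped. Krt72, Krt27 and Krt25, keratins of the same layer, differed by -3.00 ± 0.60, -2.59 ± 0.62 and -1.84 ± 0.52 log2 units.

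Hair shaft genes behaved alike, with 11 of 11 lower in both groups, against 34.9% of all genes. Their median was -1.54 log2 units (High -2.14, Low -1.30). Krt31 and Krt35, hair keratins of the cortex, differed by -2.79 ± 0.87 and -1.28 ± 0.57. Dsg4, the desmoglein of the hair shaft, differed by -2.56 ± 0.55 and Krt84, another hair keratin, by -1.98 ± 0.29. Krt36 had the closest agreement between groups, at 7.80, 6.56 and 6.55 in the High group and 7.19, 6.10 and 5.89 in the Low group at days 4, 6 and 9. Its difference of -1.27 ± 0.09 (adjusted p = 0.102) was in place by day 6 in both groups, at 99.0% in High and 83.9% in Low of the day 4 to day 9 difference. Among genes that direct follicle formation, 6 of 12 placode and matrix genes were lower in both groups and 1 was higher. Over all genes these shares were 34.9% and 28.8%. The list median of -0.31 was -0.14 without the High day 4 sample and -0.002 without both libraries. The difference was -0.46 ± 0.10 for Shh, the signal that drives follicle downgrowth, -0.33 ± 0.09 for Edar, the ectodysplasin receptor of placodes, and -0.29 ± 0.10 for Msx1, a homeobox factor. Without both libraries these were -0.24, -0.12 and -0.20. Lgr5, a marker of cycling follicle stem cells, had -0.57 ± 0.20, mostly in Low (High -0.185, Low -0.962). It was at -0.34 without the Low day 9 sample and at -0.80 without both libraries.

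The differences of the lower genes mostly came at different times in the 2 groups. Over the 105 lower genes, the share of the day 4 to day 9 difference present at day 6 had a median of 97.2% in the High group (quartiles 73.8% to 104%) and of 28.6% in the Low group (20.7% to 39.7%). It reached at least 80% for 70 genes in High and for 1, Krt36, in Low. For the keratin-associated proteins the medians were 101% in High and 26.7% in Low, and for the 6 sebaceous list genes among the 105 they were 69.9% in High and 40.5% in Low. Over all genes, 200 were at least 1 log2 unit lower at day 6 than at day 4 in High and 33 in Low, while 41 in High and 120 in Low were lower by as much at day 9 than at day 6. With 1 sample at each point this order has no test of its own. The difference in slope per day between High and Low gave 0 genes (0.0%) at an adjusted p under 0.05 in limma (lowest adjusted p = 0.988) and 602 (3.96%) at an unadjusted p under 0.05. A straight slope is set mostly by days 4 and 9 and gives day 6 little weight, so it cannot decide the timing.

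**Figure D3:**
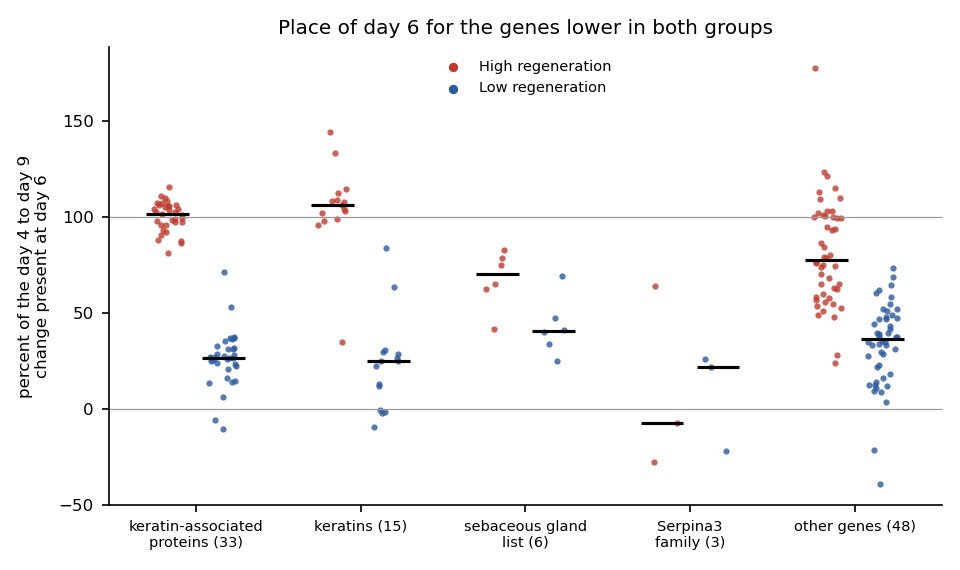
Share of the day 4 to day 9 difference that was present at day 6, in percent, for the genes lower in both groups, with a point for each gene, red for High and blue for Low, and a bar at the median of each set. A value of 100 means that day 6 equalled day 9 and a value of 0 that it equalled day 4. The keratin-associated proteins lie around 101% in High and 26.7% in Low.

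The timing in the 2 groups and the libraries that stood apart cannot be told apart. The value without both libraries joins the High difference after day 6 to the Low difference before it. Those are the intervals in which the hair lists differed least. Mean levels of the inner root sheath list were 10.53, 8.40 and 8.75 log2 units at days 4, 6 and 9 in the High group and 8.70, 8.30 and 7.04 in the Low group. The High sample of day 4 was thus far above and the Low sample of day 9 far below the other 4 samples. Without both, the median difference was 0.01 for the inner root sheath list, -0.17 for the hair shaft list and -0.72 for the 33 keratin-associated proteins, of which 6 were still at least 1 log2 unit lower. Of the 105 lower genes, 35 were, and 8 were higher. Without the High day 4 sample alone the medians were -1.36 and -1.17 for the 2 hair lists, and without the Low day 9 sample alone -1.48 and -1.59. Markers of deeper tissue were also highest in the High sample of day 4. The skeletal muscle list averaged 7.78 there, against 6.54 to 6.78 in the other 5 samples, and the adipocyte list 7.44, against 6.41 to 6.86. Their part in the hair result was not tested.

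**Figure D4:**
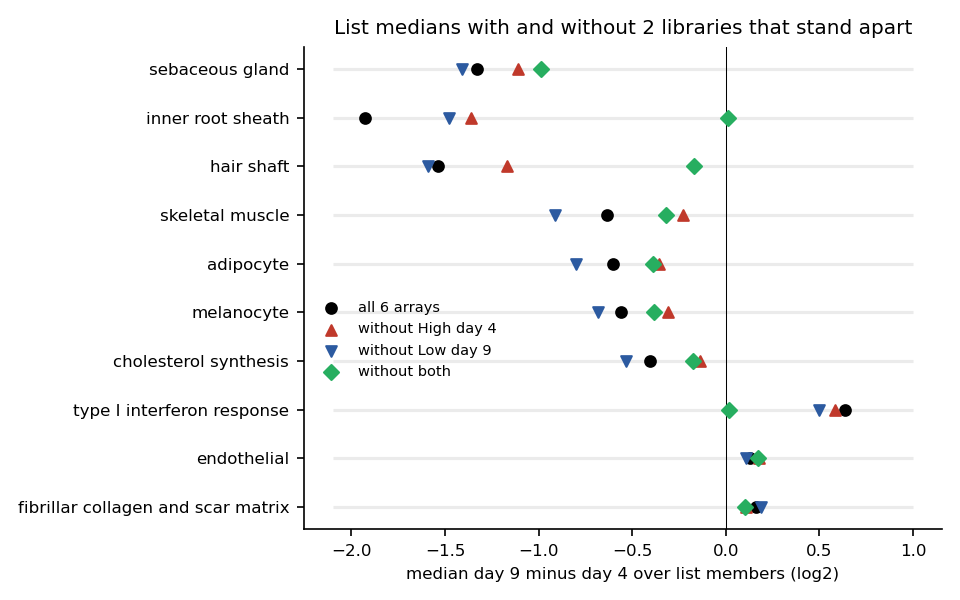
Median day 9 minus day 4 difference over the members of 10 gene lists, in log2 units, with all 6 arrays (black) and without the High day 4 sample, the Low day 9 sample or both. The inner root sheath and type I interferon lists come to 0.01 and 0.02 without both, while the sebaceous gland list goes from -1.33 to -0.99.

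Pigment, fat and muscle genes were lower at day 9 as well. The list counts that follow stand beside 34.9% of all genes lower in both groups. Dct, an enzyme of melanin synthesis, was at 8.72, 6.98 and 6.25 log2 units at days 4, 6 and 9 in the High group and at 7.73, 6.77 and 5.88 in the Low group. Each day lay below the one before in both groups, and the difference was -2.16 ± 0.20 (adjusted p = 0.117). Tyrp1 and Pmel, which act with it in the pigment granule, had differences of -1.32 ± 0.17 and -0.65 ± 0.14. Of 9 melanocyte genes, 8 were lower in both groups, with a median of -0.56 (High -0.91, Low -0.39) that was -0.31 without the High day 4 sample and -0.38 without both libraries. All 9 adipocyte genes were lower in both, with a median of -0.60 (High -0.96, Low -0.40) that was -0.36 without the High day 4 sample and -0.39 without both. Among them were Car3, a carbonic anhydrase of fat and muscle, at -2.28 ± 0.41, and Pparg, the regulator of fat cell differentiation, at -0.60 ± 0.08. Skeletal muscle genes were lower in 10 of 11 cases, but mostly in High: the median was -1.05 in High and -0.22 in Low, and over both groups -0.64, or -0.23 without the High day 4 sample. Acta1, skeletal muscle actin, was at 6.47 in High and 6.34 in Low at day 9, against 8.30 in High and 6.75 in Low at day 4. Cholesterol synthesis genes were lower in both groups for 11 of 13, with medians of -0.67 in High and -0.14 in Low, and Msmo1, a sterol oxidase, had -0.86 ± 0.15. Their median over both groups was -0.40, or -0.14 without the High day 4 sample.

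In the Serpina3 family of protease inhibitors, Serpina3j and Serpina3b stood near their day 4 level at day 6. Chosen after their values were seen, 3 of 4 tested members were among the 105 lower genes. Serpina3j was at 9.72, 9.94 and 6.79 log2 units at days 4, 6 and 9 in the High group and at 11.41, 10.76 and 8.89 in the Low group. Day 9 lay below the earlier days in each group, and day 6 stayed near day 4. Its difference was -2.72 ± 0.31, that of Serpina3b -2.26 ± 0.35 and that of Serpina3n -1.21 ± 0.27. Serpina3f stood at 7.34 in High and 7.60 in Low at day 9, against 6.90 in High and 7.61 in Low at day 4. Without both libraries, Serpina3j was at -3.80, Serpina3b at -3.52 and Serpina3n at -0.28 log2 units. Most of the difference came after day 6 also in Cfap57, a protein associated with cilia and flagella, at 9.33, 8.84 and 7.29 in High and 8.09, 7.95 and 6.45 in Low (difference -1.84 ± 0.12), and in Pcolce2, an enhancer of procollagen processing, at 7.83, 7.54 and 6.77 in High and 7.82, 7.66 and 6.68 in Low (difference -1.10 ± 0.09). For both, day 9 lay below all earlier samples. Neither had at most 20% of its difference at day 6 in both groups, and 0 of the 105 genes did. With the rows of a gene averaged, Cfap57 was at -1.01.

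Few genes were higher at day 9 by as much. Sec61b, a subunit of the channel that carries proteins into the endoplasmic reticulum, was at 8.04, 8.43 and 9.06 log2 units at days 4, 6 and 9 in the High group and at 7.74, 8.20 and 8.84 in the Low group. Day 9 lay above all earlier samples, by 1.06 ± 0.07 over day 4 (adjusted p = 0.102), and the difference was 1.09 without both libraries. Erv3, an endogenous retroviral sequence, was 1.51 ± 0.13 higher. The unnamed transcript A530006G24Rik was at 8.42, 7.93 and 9.43 in High and 8.61, 7.95 and 9.67 in Low, lowest at day 6 in both groups. Another, 2310043M15Rik, was 1.22 ± 0.17 higher, with its difference in place by day 6. With the rows of a gene averaged, the differences were smaller for Sec61b (0.70), Erv3 (0.91) and A530006G24Rik (0.44).

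The other 3 higher genes are induced by interferon, the cytokine of antiviral defence. Ifit1, which binds foreign RNA, was at 7.97, 9.10 and 9.07 log2 units at days 4, 6 and 9 in the High group and at 10.05, 9.49 and 11.15 in the Low group. Day 9 exceeded day 4 within each group, but the High sample of day 9 was below the Low sample of day 4, so that the days overlapped. The difference was 1.10 ± 0.45 (adjusted p = 0.291). Usp18, which removes the ubiquitin-like protein ISG15 from its targets, was 1.13 ± 0.33 higher and Slfn8, a schlafen family gene, 1.01 ± 0.28 higher. The interferon-stimulated response element, searched as GAAA, any 2 bases and GAAA again, was looked for on both strands of the same promoters. It occurred in those of Ifit1 and Slfn8, in 7 of 13 matched promoters of the type I interferon list (53.8%) and in 2.74% of all. Usp18 had no matched promoter and was not searched. The bases before the start are shown for both genes, with matches in capitals, which lie on the opposite strand (Ifit1 chr19:34640739-34640888, plus strand, and Slfn8 chr11:83020811-83020960, minus strand).
Ifit1: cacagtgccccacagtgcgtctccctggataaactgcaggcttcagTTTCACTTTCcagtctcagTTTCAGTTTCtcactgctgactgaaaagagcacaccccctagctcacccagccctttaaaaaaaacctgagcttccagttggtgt
Slfn8: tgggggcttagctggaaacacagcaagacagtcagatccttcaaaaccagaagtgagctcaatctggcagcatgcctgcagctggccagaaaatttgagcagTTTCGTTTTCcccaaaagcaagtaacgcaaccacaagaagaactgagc

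Type I interferon genes stood higher as a list, again with the same pair of libraries at the ends. Of 21 measured members, 18 were higher in both groups and 0 lower, against 28.8% of all genes higher, and 15 had an unadjusted p under 0.05, against 8.18%. The median difference was 0.64 log2 units (High 0.59, Low 0.84). This list too was chosen with earlier results of these data known, so its counts are a description only. Mean levels were 7.34, 7.89 and 7.87 at days 4, 6 and 9 in the High group and 8.25, 8.23 and 8.99 in the Low group, lowest in High day 4 and highest in Low day 9. Without both samples the median was 0.02, and Ifit1, Usp18 and Slfn8 were at -0.58, -0.07 and -0.02. Isg15, the ubiquitin-like modifier itself, kept its difference: it was at 5.72, 5.86 and 6.31 in High and at 6.38, 6.94 and 7.61 in Low, 0.91 ± 0.17 higher at day 9 and 1.01 without both. Interferon-gamma response genes had a median of -0.10 in High and 0.67 in Low, and of -0.06 over both groups without the Low day 9 sample. Gbp2, a guanylate-binding protein of that response, was 0.81 ± 0.23 higher.

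**Figure D5:**
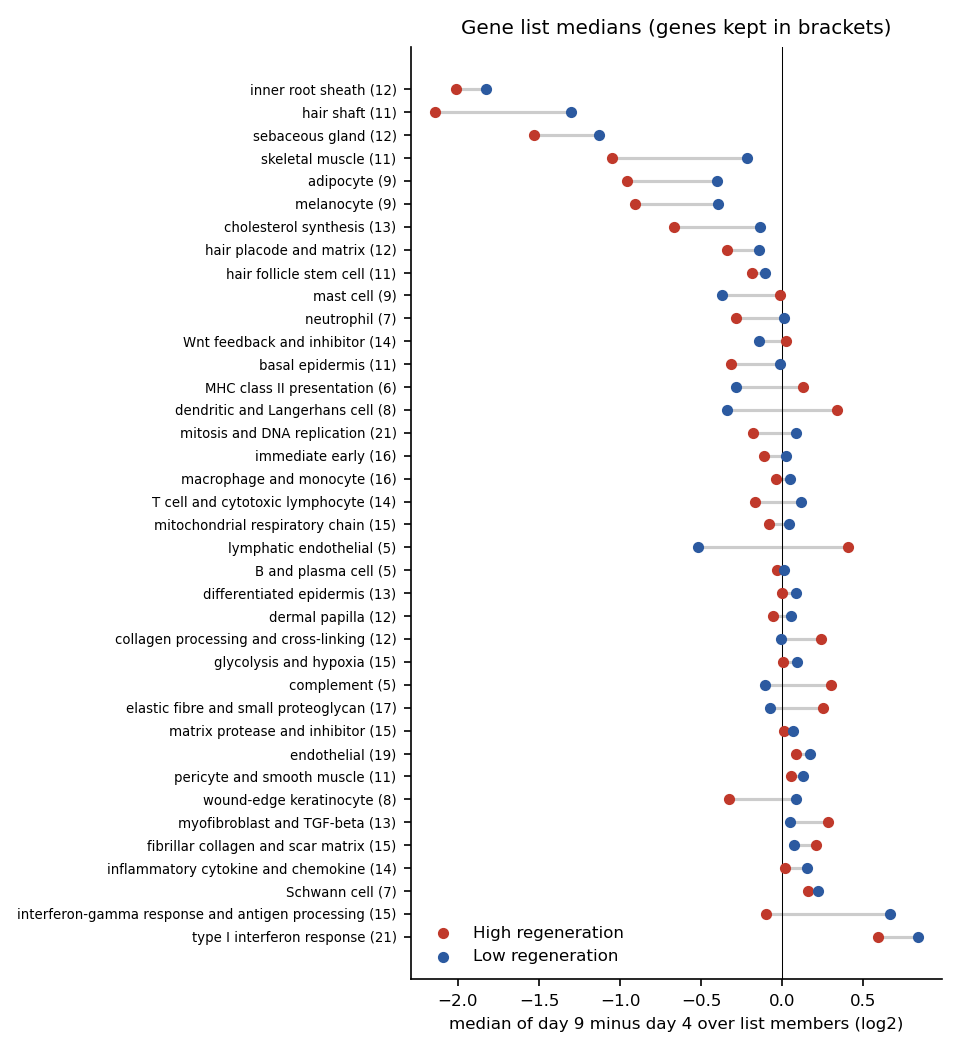
Median day 9 minus day 4 difference, in log2 units, over the members of each of 38 gene lists, in the High group (red) and the Low group (blue), with the number of genes tested in brackets. Inner root sheath, hair shaft and sebaceous gland lie lowest in both groups and the type I interferon list highest, while most other lists lie within 0.5 units of 0.

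Against these, the differences of scar matrix and repair genes were small in size. Over all genes, 28.8% were higher in both groups and 34.9% lower. Of 15 fibrillar collagen and scar matrix genes, 10 were higher in both groups and 1 lower, with a median of 0.16 log2 units. Col1a1 was at 13.24 in High and 13.23 in Low at day 9, against 13.18 in High and 13.27 in Low at day 4. Col3a1, the collagen of young scar, was 0.12 ± 0.08 higher and Col6a3, a microfibrillar collagen, 0.38 ± 0.10 higher. Of 13 myofibroblast and TGF-beta genes, 7 were higher in both and 0 lower (median 0.16, and 0.04 without the High day 4 sample). Acta2, the actin of myofibroblasts, was at 8.83 in High and 8.82 in Low at day 9, against 8.98 in High and 8.78 in Low at day 4, and its days overlapped. Tgfbr2, a TGF-beta receptor, was 0.29 ± 0.07 higher at day 9, and Inhba, which encodes activin A, 0.51 ± 0.17 higher. Endothelial genes were higher in both groups for 14 of 19 and lower for 1, beside the same shares of all genes, but by a median of 0.13. Pecam1, the vessel adhesion molecule, was 0.13 ± 0.08 higher.

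Some repair genes stood out within lists that did not. Ptgs2, the inducible enzyme of prostaglandin synthesis, was at 8.65, 8.86 and 9.44 log2 units at days 4, 6 and 9 in the High group and at 6.56, 6.93 and 7.77 in the Low group. It was higher at each later day within a group, by 0.999 ± 0.121 over day 4 (adjusted p = 0.126), and by 0.95 without both libraries. Krt17, a keratin of wound edge and follicle, had a difference of -1.01 ± 0.16, whereas Krt16, a keratin of activated epidermis, was at 11.42 in High and 11.97 in Low at day 9, against 11.86 in High and 10.73 in Low at day 4. Cdh19, a cadherin of Schwann cells, was 0.62 ± 0.10 higher and Sox10, their lineage factor, 0.28 ± 0.07 higher. Egr2, a myelination factor on the same list that is also an immediate early gene, went the other way, at -0.79 ± 0.14 (High -0.84, Low -0.74). The contractile genes Cnn1 and Des had differences of -0.98 ± 0.23 and -0.66 ± 0.12, while Rgs5, a pericyte marker, was 0.56 ± 0.16 higher. Without both libraries these were smaller, at -0.28 for Cnn1, -0.37 for Des and 0.26 for Rgs5. Egr2 was then at -0.35 and Krt17 at -0.74, while Cdh19 was at 0.76 and Sox10 at 0.27. Differences about as large as their errors were found for Krt10 (0.09 ± 0.09), Krt14, the keratin of basal epidermis (-0.12 ± 0.14), Mki67, a marker of dividing cells (-0.09 ± 0.12), and Csf1r, the macrophage growth factor receptor (-0.06 ± 0.09).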

How the data were processed

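The 6 arrays were whole scar biopsies, grouped by the day and regeneration level in the labels. The authors' deposited values are log2 levels per transcript cluster, a unit read from their range. PLIER, which summarises probes, and Affymetrix Expression Console were used, per the submitters' processing notes. No genome build, background correction or filter is given in the sources used here. Of 53145 rows, 25466 had 1 gene symbol, 2299 several and 25380 none in the platform annotation, and rows with several or none named no gene. Array medians lay between 6.04 and 6.10, so no normalization was added. Tests used limma 3.58.1 in R 4.3.3 on all 6 arrays with day as a factor and regeneration level as covariate, and were checked on simulated data. No day and regeneration level held more than 1 sample. For differences between days, p-values and SEs therefore rest on how High and Low disagree across days, not on replicates. They also rest on the spread of all genes, toward which limma draws that of each gene. That shared part counted as 2.82 prior degrees of freedom with all 6 arrays, beside 2 residual ones. The number of arrays limits the precision. Gene lists were described by counts and medians. Members and lists were chosen with earlier results of these data known. Named genes were up to 12 per direction of lowest p with 1 log2 unit in both groups, for the 8 lowest and 8 highest lists the first 2 genes and up to 3 of lowest p, the first gene of other lists, up to 6 per pattern with their difference early or late in both groups, up to 5 of lowest p for the slope difference, and checks of libraries. Normalization, filter, rows per gene, model and each library were varied.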

Additional observations from a re-analysis of the deposited data

Results flagged for a closer look

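Some lists and genes had opposite directions in the High and Low groups between days 4 and 9, and for the lists the difference between groups was not tested. The lymphatic endothelial list had a median difference of 0.406 log2 units in High and -0.52 in Low over 5 genes. The dendritic and Langerhans cell list was at 0.341 in High and -0.341 in Low, MHC class II presentation at 0.128 and -0.287, complement at 0.301 and -0.106, and T cell and cytotoxic lymphocyte genes at -0.169 and 0.116. Without the High day 4 and Low day 9 samples these medians were 0.31, -0.21, -0.40, -0.25 and -0.42.

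3 genes differed by at least 1 log2 unit in opposite directions. Greb1l was at 1.21 in High and -1.59 in Low, Trim12a at 1.15 and -2.12, and A730008H23Rik at 1.14 and -1.3. For Greb1l the slope per day differed by 0.55 ± 0.06 log2 units (unadjusted p = 0.000442 in limma, n = 6 samples, and adjusted p = 0.988), which did not pass. The lowest p for that difference belonged to Rnase2b, a ribonuclease gene, at 7.52 in High and 9.51 in Low at day 9, against 10.09 in High and 10.50 in Low at day 4. Alox12e, an epidermal lipoxygenase, was at 7.37 in High and 9.14 in Low at day 9, against 10.24 in High and 9.84 in Low at day 4. Day 9 minus day 4 was -1.07 in High and 0.92 in Low for Gadl1, and -0.38 in High and -1.87 in Low for Cdh4, a cadherin. All had adjusted p = 0.988.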

How the results depend on the processing

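The count of genes past the adjusted threshold was 0 in both directions under every alternative but the fit on days 4 and 9 alone and those without either day 6 sample, each with 7 higher and 64 lower. Leaving out 1 library thus gave 0 to 7 higher and 0 to 64 lower. The lowest adjusted p was between 0.0714 and 0.425 otherwise. At an unadjusted p under 0.05, leaving out 1 library gave 526 to 1498 genes higher and 671 to 1719 lower, fewest without High day 9, and leaving out more dim genes, up to the median level, gave 929 lower, and 2409 genes with both day 9 samples below both day 4 samples, where fewer genes were tested. Averaging the rows of a gene gave 4 genes at least 1 log2 unit higher in both groups. Without High day 4 and Low day 9 together, an alternative chosen after seeing the data, 14 of 97 named genes turned sign. Among these were Ifit1, Usp18, Slfn8 and Krt25 (0.07), which passed on days 4 and 9 alone, and Krt31 (0.24) and Krt35 (0.53), which did not. Under the other alternatives 11 of the 97 turned sign, and none of those 11 passed in any fit. Without 1 library, the difference was between -0.651 and 0.257 for Sqle, -0.0767 and 0.523 for Tap1, -0.0808 and 0.565 for Il1b, -0.563 and 0.0919 for Cxcl2, -0.0449 and 0.0669 for Col1a1, -0.137 and 0.0314 for Acta2, -0.692 and 1.5 for Krt16, -0.00925 and 0.195 for Krt10, -0.354 and 0.113 for Krt14, -0.148 and 0.0217 for Csf1r, and -0.273 and 0.084 for Mki67. Sqle was at 0.273 with rows averaged. The wound-edge keratinocyte median of 0.16 was -0.18 with no filter and 0.73 without High day 4 and Low day 9 together. The cause of these shifts was not tested. The regeneration term already set High against High and Low against Low across days, and without it 0 genes passed. The labels give no other pairing.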

Other observations

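A small set of genes was set apart at day 6 in both groups, chosen after their values were seen. Day 6 lay at least 0.5 log2 units above both other days in both groups for 9 genes (0.0592%) and as far below for 6 (0.0395%). Ms4a2, the beta chain of the IgE receptor of mast cells, was at 7.46, 8.67 and 7.28 log2 units at days 4, 6 and 9 in the High group and at 7.17, 8.25 and 7.34 in the Low group. Ctsg, a protease of granule-bearing myeloid cells, was at 6.72, 7.75 and 6.61 in High and at 6.57, 7.07 and 5.94 in Low. Of 9 mast cell genes, 7 were highest at day 6 in both groups, against 16.8% of all genes. Mrgprb1, a Mas-related receptor of mast cells, was at 7.88, 9.47 and 7.98 in High and at 8.30, 8.71 and 7.72 in Low, and Cpa3, the mast cell carboxypeptidase, at 9.89, 10.48 and 9.91 in High and at 10.14, 10.27 and 9.60 in Low. Fcer1a and Hdc did not peak at day 6 in both groups. Ang2, the angiogenin family member 2, was lowest at day 6, at 7.95, 6.26 and 7.88 in High and at 7.47, 5.93 and 7.52 in Low, with limma adjusted p = 0.128 for day 6 minus day 4 and 0.099 for day 9 minus day 6. Over all genes, limma called 0 for day 6 minus day 4 (0.0%, with 1441 or 9.49% at an unadjusted p under 0.05) and 0 for day 9 minus day 6 (0.0%, with 2223 or 14.6%).

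Rows that named no single gene also differed between days 9 and 4. Of 1418 rows with several symbols above the level filter, 15 were at least 1 log2 unit lower in both groups and 1 higher. Of 11297 rows with no symbol, 46 were lower and 36 higher.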
